A study of Rattus norvegicus with 21 samples.

Results

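The water extract of Jakyakgamcho-tang (JGT), a traditional herbal decoction prepared from peony and licorice roots, was compared between its low dose of 4 µg/mL and its medium dose of 20 µg/mL in PC12 cells, a rat pheochromocytoma line of adrenal medullary origin, which synthesises catecholamines and is used to model neurons. The 6 libraries, 3 per dose, were those titled as water extract at the low and the medium dose, out of 21 messenger RNA libraries in the series. The other 15 were 3 of vehicle, which the labels also call an untreated sample, 3 of water extract at 100 µg/mL (high dose) and 9 of ethanol extract at the same 3 doses. All groups were the same cell line, the labels give no exposure time, and they do not say whether a group's 3 libraries were separate cultures, so the p-values reflect only how far these libraries vary, and that variation may be technical.

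A dose course is called monotone when the response moves one way as the dose rises. Plant extracts are mixtures, and a course in which a lower dose shifts more transcripts than a higher one is non-monotone. The contrast of adjacent doses gives the difference between them gene by gene, without a vehicle library in the contrast. A monotone course can give such a difference too, so the contrast alone does not show which course a gene follows. By its title the series looks for the main transcription factors regulating JGT-associated gene signatures.

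Total expected counts were 23462992 to 28420922 in the 6 libraries and 8344416 to 28420922 over all 21. The share of counts taken by the 10 most abundant genes was 7.3 to 8.33% in the 6, and their typical distance from the median library (median absolute log2 difference over genes) was 0.0522 to 0.0779, against up to 0.314 over all 21. Ethanol medium replicates 2 and 3 and ethanol low replicate 1 stood apart from the other 18 libraries, and no ethanol library entered the main fit. Fragment lengths overlapped between the doses, at 223.6, 229.4 and 226.7 bases in the low-dose libraries and 227.9, 240.8 and 222.9 bases in the medium-dose libraries.

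The tables list 32883 Ensembl rat gene IDs without names, and 0 of them matched the RefSeq gene table used. Genes are therefore described by their measured properties, and only the 2 IDs with the largest change each way are named. For the same reason the marker genes of PC12 cells were not checked, and no positions or sequences are given. Counts above 0 were found for 18525 IDs in the 6 libraries, and 12208 had a mean of at least 1 CPM (counts relative to the scaled library total), which held 99.9% of the counts. The gene just inside this limit had a mean of 1.0014 CPM and the gene just outside 0.99997 CPM.

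Against the medium dose, 58 genes (0.475%) rose and 89 (0.729%) fell in the low-dose libraries, in all 147 of 12208 tested or 1.20% (edgeR's quasi-likelihood test, Benjamini-Hochberg adjusted p under 0.05, here termed called). The changes were small. Their median absolute log2 change was 0.30 in each direction, a 1.23-fold difference, with a median SE of 0.0615. A change of at least 1.5-fold was fitted for 6 of the 58 higher and 2 of the 89 lower genes, and 1 higher gene reached 2-fold. The smallest adjusted p was 0.00751. All 147 called genes had 3 low-dose libraries on one side of the 3 medium-dose libraries, as did 2436 of all genes tested (20.0%). Over all genes tested the median log2 change was 0.001, and 50.2% of genes were on the higher side.

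The count depended on single libraries. Without low replicate 1 the fit called 6 genes, with 1078 at an unadjusted p below 0.05 in place of 1689, and without medium replicate 1 it called 7. Without low replicate 2 it called 76, and without medium replicate 2 or 3 it called 62 or 68. High-dose libraries, which are not in the contrast but share its scaling and its estimate of the spread, moved it as well, to 269 without high replicate 1 and to 88 without high replicate 2. A fit to all 21 libraries called 0 genes with edgeR and had 437 with unadjusted p below 0.05. In the 12 libraries DESeq2 called 242 and limma-voom 160.

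**Figure D1:**
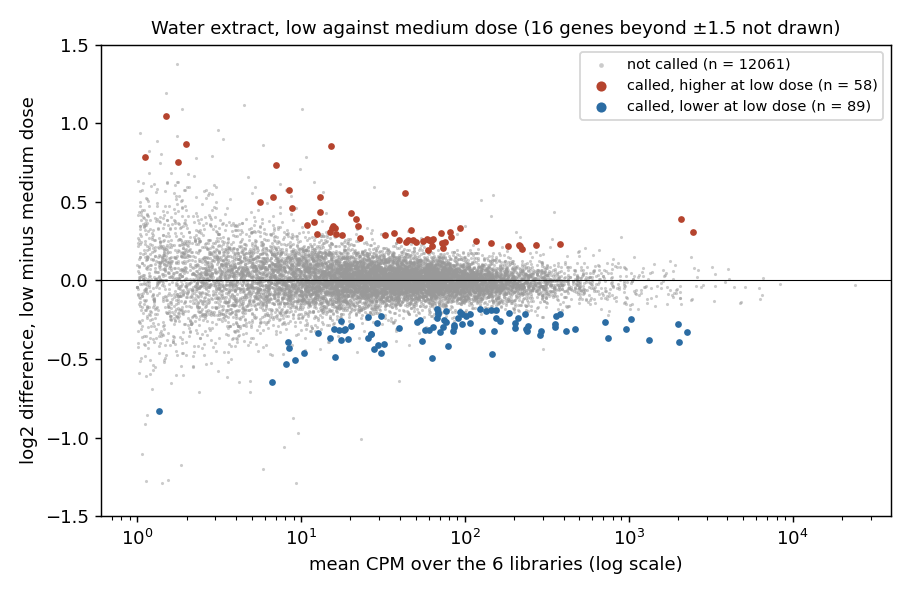
Log2 difference of low minus medium dose (vertical axis) against the mean level in CPM over the 6 libraries (horizontal axis, log scale), 1 point per gene, for genes within ±1.5. The 58 genes called higher and 89 called lower lie mostly within 0.5 log2 units of 0, and most points beyond 1 log2 unit were not called.

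**Figure D2:**
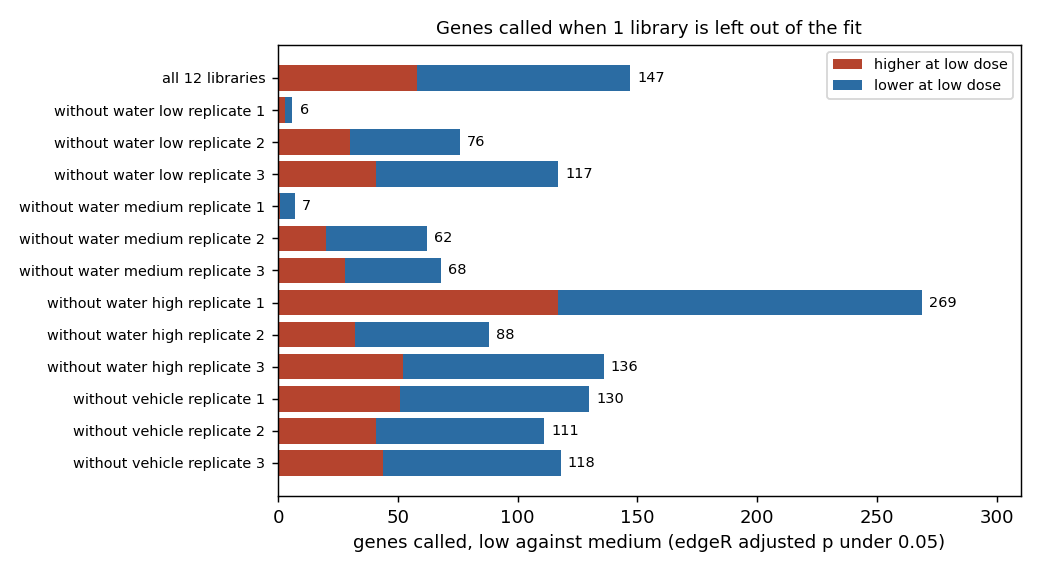
Number of genes called for low against medium dose (horizontal axis) with all 12 libraries and with 1 library left out of the fit (rows), split by direction. The count drops from 147 to 6 without low replicate 1 and to 7 without medium replicate 1.

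The gene with the largest rise was ENSRNOG00000056448.1. It stood at 1.94, 2.18 and 1.96 CPM in low replicates 1 to 3, and at 0.99, 0.842 and 1.11 CPM in the medium replicates. Every low-dose library lay above every medium-dose library. With a medium-dose mean under 1 CPM, it met the limit on low values only through the low dose, where it is high; with no such limit the edgeR adjusted p was 0.00595. The fitted log2 difference was 1.05 ± 0.194 (SE; edgeR adjusted p = 0.0112), from 46 to 63 counts per low library and 23 to 28 per medium library. This ID has 2 annotated transcripts, and its estimated length ran from 1576 to 1952 bases over the 12 libraries. With offsets for effective length the log2 difference was 1.26 (edgeR adjusted p = 0.0127), so its size depends on how length is handled. Vehicle stood at 0.951, 1.14 and 0.814 CPM, which overlaps the medium dose, and the high dose at 1.45, 0.962 and 1.4 CPM, with 1 library at the level of the medium dose. By group mean the order was low (2.03 ± 0.135 CPM), high (1.27 ± 0.268), medium (0.982 ± 0.136) and vehicle (0.97 ± 0.166; SD, n = 3 each). The steps from low to high (edgeR adjusted p = 0.105) and from high to medium (edgeR adjusted p = 0.542) did not pass. The call was lost without low replicate 1 (edgeR adjusted p = 0.0764), without medium replicate 1 (0.0694) or 2 (0.0679), and with 21 libraries (0.76).

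The next in size was ENSRNOG00000019118.6, at 2.87, 2.81 and 2.05 CPM in the low replicates and 1.33, 1.32 and 1.59 CPM in the medium replicates. The groups did not overlap, and low replicate 3 was nearest to the medium dose. The fitted log2 difference was 0.87 ± 0.172 (SE; edgeR adjusted p = 0.0177). The high dose stood at 2.15, 2.11 and 2.1 CPM, above every medium library, and vehicle at 1.38, 1.31 and 1.02 CPM. High against vehicle, a comparison with no library of the low or medium dose, differed by 0.76 ± 0.185 log2 units (SE; edgeR adjusted p = 0.0213). By group mean the order was low (2.58 ± 0.456 CPM), high (2.12 ± 0.0233), medium (1.41 ± 0.154) and vehicle (1.24 ± 0.194; SD, n = 3 each). The neighbouring steps high to low (edgeR adjusted p = 0.404), high to medium (0.253) and medium to vehicle (0.809) did not pass. The low against medium call was lost without low replicate 1 (0.135) or 2 (0.066), without medium replicate 1 (0.101) or 2 (0.0785), and with 21 libraries (0.76).

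The largest fall was that of ENSRNOG00000047295.2, at 0.932, 0.936 and 1.07 CPM in the low replicates and 1.59, 1.94 and 1.67 CPM in the medium replicates. Here the medium dose was the highest of the 4 groups, above the vehicle libraries at 1.64, 1.14 and 1.17 CPM in its mean but not in every library. The fitted log2 difference was -0.83 ± 0.198 (SE; edgeR adjusted p = 0.0437). With a low-dose mean of 0.979 CPM, it met the limit of 1 CPM only through the medium dose, and with no such limit it did not pass (edgeR adjusted p = 0.053). Medium against vehicle was 0.39 ± 0.195 (SE; edgeR adjusted p = 0.475) and low against vehicle -0.44 ± 0.209 (SE; edgeR adjusted p = 0.183). Counts of this ID were not whole in any of the 12 libraries, which means that RSEM divided reads between it and other genes, so its level is uncertain. Its call was lost in 17 of 24 alternatives, with adjusted p from 0.029 to 0.83.

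ENSRNOG00000004294.5 fell with better count support, 122 to 160 counts per low library and 176 to 234 per medium library. Its levels were 4.8, 5.54 and 5.21 CPM in the low replicates and 8.78, 8.57 and 7 CPM in the medium replicates. The groups did not overlap. The fitted log2 difference was -0.64 ± 0.122 (SE; edgeR adjusted p = 0.0125). The order ran from vehicle (9.87 ± 1.67 CPM) to medium (8.12 ± 0.97), high (6.68 ± 0.358) and low (5.19 ± 0.371; SD, n = 3 each). High against vehicle was -0.56 ± 0.12 (SE; edgeR adjusted p = 0.00977), with every high-dose library below every vehicle library. The steps vehicle to medium (edgeR adjusted p = 0.382), medium to high (0.38) and high to low (0.179) did not pass. The call was lost without low replicate 1 (0.11), without medium replicate 1 (0.0847) or 2 (0.054), and with 21 libraries (1).

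Per length, in the deposited TPM (transcript abundance scaled for length and library total), these IDs are low. At the low dose the mean levels were 1.91 ± 0.157 TPM for ENSRNOG00000056448.1, 1.13 ± 0.21 for ENSRNOG00000019118.6, 0.617 ± 0.0462 for ENSRNOG00000047295.2 and 5.25 ± 0.316 for ENSRNOG00000004294.5 (SD, n = 3 each). The called genes as a whole were more abundant.

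**Figure D3:**
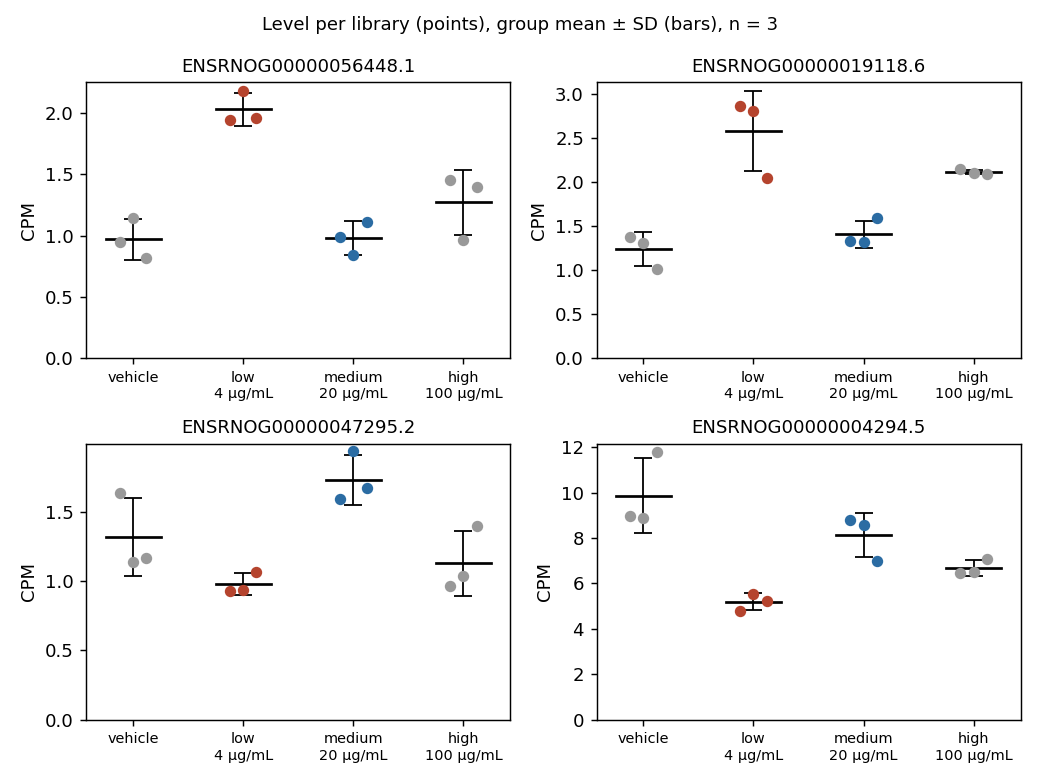
Level in CPM (vertical axis) of the 4 named IDs in each library of vehicle and of the low, medium and high dose of water extract (points), with the group mean and SD (bars, n = 3). For the upper pair the low-dose libraries lie above the medium-dose libraries, at 1.94 to 2.18 against 0.842 to 1.11 CPM for the left one, and for the lower pair they lie below them.

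The median level of the called genes was 43.4 CPM for the higher and 76.9 CPM for the lower ones, against 29.2 CPM over all genes tested. Of 3111 genes from 1 to under 10 CPM, 15 were called (0.482%). The share was 1.25% of 6904 genes from 10 to under 100 CPM, 1.86% of 2096 genes from 100 to under 1000 CPM, and 7.22% of 97 genes at 1000 CPM or over. In that top class 2 genes rose and 5 fell. From 100 to under 1000 CPM the lower ones also outnumbered the higher, 31 to 8, while from 1 to under 10 CPM 9 were higher and 6 lower. Of the 147, 3 had a mean under 1 CPM at one of the doses and so met the limit on low values only through the other. The median SE of the log2 difference was 0.145, 0.0638, 0.0492 and 0.0568 in these classes, largest in the lowest class.

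The called genes took a small share of all counts. The 89 lower genes took 1.65, 1.81 and 1.86% of all counts in the low-dose libraries and 2.17, 2.18 and 2.15% in the medium-dose libraries. In vehicle they took 2.28, 2.21 and 2.35%, and at the high dose 2.08, 1.99 and 2.04%, so the high-dose libraries lay between the low and the medium dose. The low and medium libraries chose these genes, which by itself tends to place another group between them. The 58 higher genes took 0.957, 0.879 and 0.826% in the low-dose libraries and 0.689, 0.724 and 0.71% in the medium-dose libraries. Vehicle had 0.7, 0.695 and 0.662% and the high dose 0.817, 0.822 and 0.793%.

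The higher genes were longer, with a median of 3268 bases, than the lower genes at 2270 bases, and the median over all genes tested was 2220 bases. Of 2048 genes of 4000 bases or more, 18 were higher and 12 lower. Of 3973 genes from 1000 to under 2000 bases, 13 were higher and 38 lower. From 2000 to under 4000 bases 27 of 4886 genes were higher and 36 lower, and under 1000 bases 0 and 3 of 1301. The share called was 0.231% under 1000 bases and 1.28, 1.29 and 1.46% in the classes of rising length above. Fragments were longest in medium replicate 2, and the part of fragment length was tested in separate fits. With offsets for effective length 118 genes were called, and with fragment length as a covariate 21 were higher and 49 lower. In the second fit 68 of the 147 remained called, and all 147 had an unadjusted p below 0.05, on the libraries that chose them. The fitted log2 differences of the named IDs there were 0.96 for ENSRNOG00000056448.1, 0.81 for ENSRNOG00000019118.6, -0.82 for ENSRNOG00000047295.2 and -0.57 for ENSRNOG00000004294.5. A single annotated transcript was listed for 71.4% of the called genes and for 70.2% of all tested. Counts that were not whole in at least 1 of the 6 libraries were found in 20 of the 147 (13.6%) and in 14.5% of all tested.

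Large fitted changes were mostly not called. Of 31 genes with at least a 2-fold difference, 30 did not pass, 11 on the higher and 19 on the lower side, and their smallest adjusted p by edgeR was 0.237. All 30 had counts that were not whole, 20 had a count of 0 in at least 1 of the 6 libraries, and in 26 the doses overlapped. Their median level was 2.4 CPM.

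The place of the medium dose in the course was then tested against the doses on both sides of it. Against the mean of low and high, 21 genes rose and 9 fell in the medium-dose libraries, 0.246% of those tested (edgeR adjusted p under 0.05). The absolute log2 changes were 0.20 to 0.44. In 29 of the 30 every medium-dose library lay beyond all 6 libraries of the other 2 doses, as it did in 5.32% of all genes tested. This comparison shares its low and medium libraries with the one above, which favours an overlap of the calls. Of the 58 genes higher at the low dose it called 5, and of the 89 lower ones 20. It called 1 gene without medium replicate 1, 6 without medium replicate 3 or high replicate 2, 7 without low replicate 1, 11 without medium replicate 2 and 15 without low replicate 2. With 21 libraries edgeR called 0 genes and 305 had unadjusted p below 0.05. In the 12 libraries DESeq2 called 102 and limma-voom 28. None of the 4 named IDs passed. Their log2 values in the order above were -0.70 ± 0.178, -0.72 ± 0.155, 0.72 ± 0.168 and 0.46 ± 0.103 (SE; edgeR adjusted p = 0.103, 0.0547, 0.0736 and 0.0619).

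Set against vehicle, the 58 higher genes had a median log2 difference of 0.34 (low), 0.04 (medium) and 0.15 (high). For the 89 lower genes the medians were -0.36, -0.05 and -0.18. These values share the vehicle libraries, and the low and medium libraries also chose the genes, so the first pair of medians in each direction is a description. Over all genes tested each of the 3 medians was 0.00.

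High dose against vehicle has no library in common with low against medium, although the scaling and the spread come from the same fit. Of the 58 genes higher at the low dose, 52 were on the higher side at the high dose, where 50.3% of all genes were. Of the 89 lower genes, 82 were on the lower side. Together 134 of 147 (91.2%) had the same sign in both comparisons, against 61.9% of all 12208 genes. High against vehicle called 284 genes higher (2.33%) and 359 lower (2.94%). Of the 58, 16 were called higher and 1 lower, and of the 89, 37 were called lower and 2 higher. The called genes were more abundant than the average gene, as given above, and the part of abundance in these counts was not tested. The count called the same way, 53, was 21 without high replicate 2, 27 without vehicle replicate 1 and 24 without vehicle replicate 3. With each high-dose or vehicle library left out in turn, 2.1 to 5.55% of all genes were called. The count with the same sign was 127 to 134 over these fits.

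**Figure D4:**
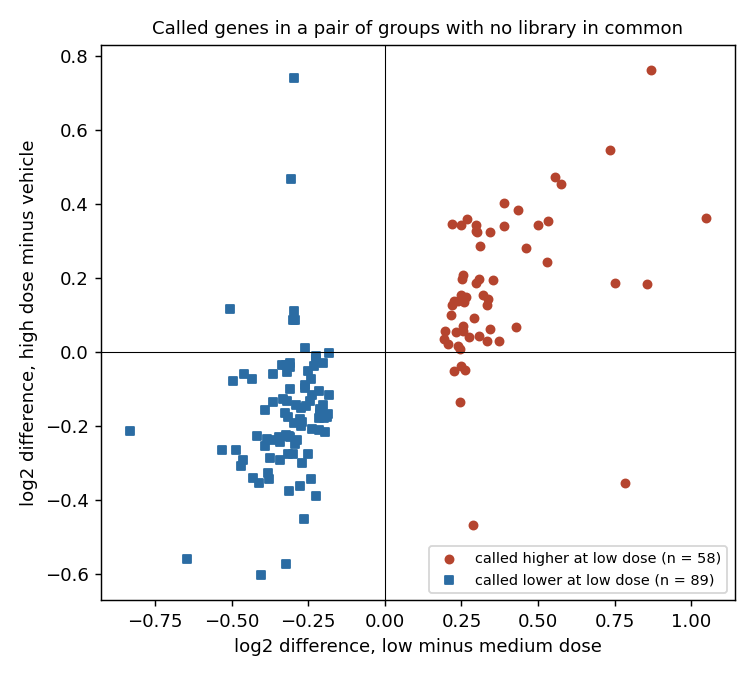
Log2 difference of high dose minus vehicle (vertical axis) against low minus medium dose (horizontal axis) for the 147 called genes, 1 point per gene. Of these, 134 lie at the lower left or upper right, and the horizontal position is what chose them.

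Averaged over the 58 higher genes, the low-dose libraries stood at 0.255, 0.143 and 0.116 log2 units above the average of the 6 libraries, and the medium-dose libraries at -0.203, -0.165 and -0.147. Low replicate 1 was farthest from the medium dose, and for the 89 lower genes it was so again, at -0.228 against -0.139 and -0.098 in low replicates 2 and 3. Vehicle stood at -0.213, -0.187 and -0.268 for the higher genes, overlapping the medium dose, and at 0.204, 0.146 and 0.219 for the lower genes. The high-dose libraries stood at -0.079, -0.048 and -0.044 for the higher genes, all between the low and the medium libraries. For the lower genes they were also in between, at 0.043, -0.001 and 0.045. A place between the doses that chose the genes is favoured by that choice. Tested directly, high against medium called 2 of the 58 genes higher and 2 of the 89 lower, and 0.123% of all genes (edgeR adjusted p under 0.05). That test shares the medium libraries that chose the genes.

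**Figure D5:**
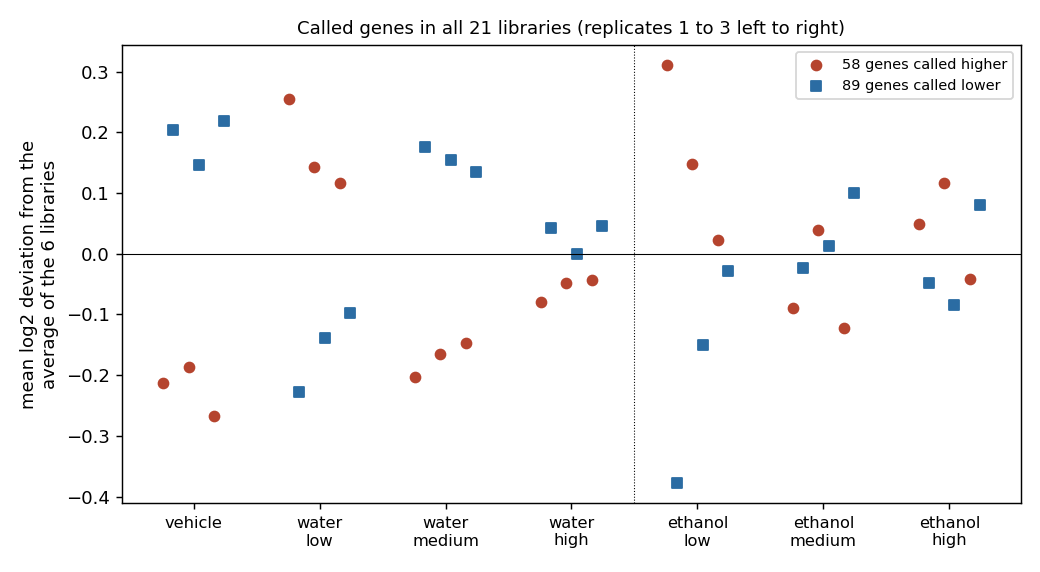
Mean log2 deviation from the average of the 6 compared libraries (vertical axis) over the 58 genes called higher (circles) and the 89 called lower (squares), for each of the 21 libraries by group (horizontal axis). Vehicle lies with the medium dose of water extract and the high dose lies between medium and low, while the ethanol groups are spread more widely. The low and medium libraries of water extract chose the genes, which favours a place between them for another group.

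The ethanol extract was given at the same doses, in libraries that played no part in choosing the genes. Ethanol low stood at 0.31, 0.148 and 0.022 log2 units for the 58 higher genes and ethanol medium at -0.09, 0.039 and -0.122, and these groups overlapped. For the 89 lower genes ethanol low stood at -0.377, -0.15 and -0.028 and ethanol medium at -0.024, 0.013 and 0.1, which did not overlap, with low replicate 3 and medium replicate 1 next to each other. In the fit of 21 libraries, 47 of the 58 were on the higher and 74 of the 89 on the lower side for ethanol low minus ethanol medium, where 52.2% of all genes were on the higher side. It called 1 of the 147 and 1 of all 12208 genes (0.00819%, edgeR), and 2486 had unadjusted p below 0.05. That fit includes the 3 ethanol libraries that stood apart, so its few calls do not show that these ethanol doses were alike. With the 18 libraries that did not stand apart, 45 of the 58 were on the higher and 63 of the 89 on the lower side, where 49.8% of all genes were on the higher side. The median log2 difference was 0.17 for the 58, -0.13 for the 89 and 0 over all genes. Ethanol medium then rests on 1 library, replicate 1. Its typical distance from the median library was 0.146, against 0.108 in water high replicate 1 and 0.185 in ethanol low replicate 1, which was left out. Total counts were 8344416 to 22302402 in the 3 ethanol low libraries and 11345609 to 15005249 in the 3 ethanol medium libraries. The part of depth in the ethanol comparison was not tested.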

How the data were processed

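Messenger RNA libraries of PC12 cells were made with a directional kit, per the labels' protocols. The authors deposited RSEM's expected counts per gene (version 1.3.3, per the submitters' processing notes), which are not normalized, beside TPM values and gene and effective lengths in bases, per the file headers. The genome build, the annotation, how strand was handled and the aligner's version are not given in the sources used here.

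Groups and replicate numbers are those of the titles. Expected counts were rounded. Genes averaging 1 CPM or more in the 6 libraries were tested with the quasi-likelihood F test of edgeR 4.0.16 in R 4.3.3 (robust, TMM) in 1 fit of the 12 vehicle and water extract libraries, with 8 residual degrees of freedom, and called where the p adjusted over all genes tested (Benjamini-Hochberg) was below 0.05. The SE is the absolute log2 change divided by the square root of F. CPM used TMM-scaled totals. Levels per library used log2(CPM + 0.5) scaled over 21 libraries. Fragment length was taken from the difference between gene and effective length (median over genes with 1000 bases or more). Replicates of a dose differed beyond sampling noise (chi-square per degree of freedom 6.88 to 9.28 over 6 pairs).

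No ID matched a symbol, so the 35 gene lists and the part of the naming rule that needs symbols were not applied. IDs were named by the part written for that case: called, no overlap of the doses, and the 2 largest log2 changes each way. The part of the series, the lists and the tests were chosen with earlier results of these data known. Alternatives were DESeq2 1.42.0, limma-voom (limma 3.58.1), other scaling, filters and sets of libraries, length and fragment corrections, a replicate block, counts not rounded, and leaving out each library. Leaving out vehicle libraries, and high-dose libraries for low against medium and for high against vehicle, was added after seeing the data.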

Additional observations from a re-analysis of the deposited data

Results flagged for a closer look

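The low minus medium difference was set against the same difference in the ethanol extract. Its water extract libraries also chose the 147 genes, so a larger share among them than over all genes is built in. With 18 libraries it differed between the extracts in 26 of the 147 called genes (17.7%) and in 1281 of all 12208 genes (10.5%) by edgeR's adjusted p under 0.05. Ethanol medium is 1 library in that fit, and it is assumed to vary as the other groups do. With all 21 libraries edgeR called 0 genes, and 673 had unadjusted p below 0.05. In neither fit did any of the 4 named IDs pass, with edgeR adjusted p from 0.0879 to 0.469 for ENSRNOG00000047295.2, ENSRNOG00000004294.5 and ENSRNOG00000056448.1, and 0.888 for ENSRNOG00000019118.6, with 18 libraries.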

How the results depend on the processing

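For low against medium, 10 of 14 alternatives other than leaving out a library gave a count within 1.5 times of 147 genes. The others gave 242 with DESeq2, 80 with the 9 water extract libraries, 70 with the fragment length covariate and 0 with 21 libraries (edgeR; 437 at an unadjusted p under 0.05). These are counts, and the genes called were not all the same. A fit of only the 6 compared libraries called 120 genes, 40 higher and 80 lower, and 100 of the 147 remained called. Leaving out 1 library gave 6 to 269. For medium against the mean of low and high, DESeq2 gave 102 genes, no filter 86, only the groups compared 7, 18 libraries 4, the fragment length covariate 1 and 21 libraries 0 (edgeR; 305 unadjusted), in place of 30, and leaving out 1 library gave 1 to 45. The cause was not tested. The share of calls on the higher side of low against medium was 39.5% as reported and 30 to 42% over the alternatives that leave out no library and called any gene. With 1 library left out it was 14.3 to 50%. Same-numbered libraries of the low and medium dose did not all deviate together (correlations across genes -0.0997 to 0.259, with 4 of 6 libraries closest to their own number). The replicate block gave 212 genes for low against medium and 79 for medium against the mean of low and high. Without the 3 ethanol libraries that stood apart, a fit of 18 libraries gave 133 for low against medium. No log2 change of a named ID changed sign under any alternative that tested it. DESeq2 gave no adjusted p for 3 of the 4, and the filter at 5 CPM removed the same 3. The median SE of the log2 difference was 0.145 for genes from 1 to under 10 CPM and 0.0638 from 10 to under 100 CPM; no alternative varied the depth.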

Other observations

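In the ethanol extract libraries the named IDs stood as follows, in CPM scaled over 21 libraries. ENSRNOG00000019118.6 stood at 4.98, 3.76 and 2.45 CPM at the low dose, 1.85, 2.66 and 2.08 CPM at the medium dose and 2.36, 3.79 and 2.24 CPM at the high dose, so that the low and medium doses overlapped in 1 library each. ENSRNOG00000004294.5 stood at 3.01, 5.82 and 5.95 CPM at the low dose and 6.78, 7.16 and 10.9 CPM at the medium dose, without overlap, and at 5.56, 4.24 and 7.63 CPM at the high dose. ENSRNOG00000056448.1 stood at 1.85, 1.08 and 1.27 CPM at the low dose and 0.891, 2.25 and 1.17 CPM at the medium dose, which overlapped. ENSRNOG00000047295.2 stood at 0.811, 1.88 and 1.86 CPM at the low dose and 1.71, 2.33 and 1.43 CPM at the medium dose, which overlapped. The first replicate of the low dose and replicates 2 and 3 of the medium dose are the libraries that stood apart.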
